A study of Mus musculus with 6 samples.

Results

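Interferon-stimulated genes are described here in OT-I CD8+ T cells expanded as effector-like (TEff) or tissue-resident memory-like (TRM-like) cells. The list holds 50 genes named for their response to interferon, all 50 of which were found among the 57126 genes counted, and each was compared between the 3 TEff and the 3 TRM-like samples with every replicate shown. OT-I cells are mouse CD8+ T cells that all carry one transgenic receptor, which recognizes an ovalbumin peptide on the class I molecule Kb. Both groups were stimulated with nano-aAPCs, particles that carry the ovalbumin peptide on Kb together with an antibody to CD28, and both received IL-2. IL-15 and TGF-β were added for the TRM-like cells alone, so that the effects of these cytokines cannot be told apart. Total RNA was sequenced on day 6 of culture from TEff replicates 1 to 3 and TRM-like replicates 1 to 3. The labels do not say whether replicates came from separate mice or cultures, so that p-values measure the spread between these samples, which may be technical. In bulk RNA, fewer cells that express a gene and less RNA per cell cannot be told apart.

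Type I interferons bind a receptor of Ifnar1 and Ifnar2, and interferon-γ, which activated T cells themselves secrete, binds a receptor of Ifngr1 and Ifngr2. The kinases Jak1, Jak2 and Tyk2 then activate transcription factors: the complex ISGF3, of which Stat2 and Irf9 are subunits, binds interferon-stimulated response elements (ISREs), and interferon-γ acts largely through gamma-activated sites (GAS). The genes switched on this way encode sensors of viral RNA and DNA, enzymes and proteins that block viral replication, GTPases that attack the vacuoles of intracellular microbes, and feedback inhibitors of the pathway.

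The total of reads counted on genes was 18319013 to 23622621 per sample. In TRM-like replicates 1 and 2, 35130 and 35559 genes were detected with 1 count or more, compared with 24229 to 24908 elsewhere, and the summed level of 1545 olfactory and vomeronasal receptor genes, which T cells do not use, was 151.8 and 154.3 CPM (counts scaled to the effective library size) in TRM-like replicates 1 and 2 against 20.3 to 30.5 in the others. Per kb of gene length this was 0.0284 and 0.0289 CPM against 0.00381 to 0.00571, and Ifi44 was the member nearest this level, at 0.011 CPM per kb in TEff and 0.035 in TRM-like samples. TRM-like replicate 3 stood apart from replicates 1 and 2 in the genes described here, and fold changes are therefore given with and without it. Because it was singled out by its values in these same genes, p-values and counts without it depend on that choice. They rest on TRM-like replicates 1 and 2, the samples with the most genes detected. The 7 markers of CD8 T cells (Cd3e, Cd3d, Cd3g, Cd8a, Cd8b1, Trac and Thy1) summed to 2683 to 2759 CPM in TEff and 3461 to 4495 CPM in TRM-like samples, while the markers of B, myeloid, dendritic, CD4 T and erythroid cells each summed to at most 7.29 CPM in any sample. The NK cell markers, nearly all from Klrb1c, summed to 9.83, 22.0 and 11.8 CPM in TEff and 8.94, 7.03 and 0.0922 CPM in TRM-like samples.

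The interferon-stimulated genes did not move as 1 block. Of the 50 genes, 9 rose in TRM-like cells, 2 fell and 39 did not pass the threshold, which was an adjusted p below 0.05 in the quasi-likelihood test of edgeR, Benjamini-Hochberg adjusted over 26154 genes, and an absolute log2 fold change above 0.58. Among all genes tested, 3.01% passed, 1.52% rose and 1.48% fell. The genes that rose were the GTPase genes Igtp, Irgm1, Irgm2, Gbp2 and Gbp6, the signalling gene Stat2, the ADP-ribosylation gene Parp9, and the apolipoprotein L genes Apol9a and Apol9b. The counts of Apol9a and Apol9b cannot be told apart. Those that fell were the antiviral genes Mx1 and Oas3. The log2 fold change was positive in 39 of the 50 genes, against 51.4% of all genes, and its median was 0.52 over the 50 genes against 0.02 over all genes. Without TRM-like replicate 3, 25 genes rose and 2 fell of 49 tested, where 6.38% of all genes rose and 7.67% fell, and the median was 0.73 against 0.02. In that fit the log2 fold change was positive in 41 of the 49, and in 51.2% of all genes. Leaving out any other single library left 3 to 5 genes that rose and 0 or 1 that fell. Stat2, Gbp2, Irgm1, Parp9 and Oas3 lost their call without any 1 of these 5 libraries, Irgm2 without TEff replicate 1, TEff replicate 3 or TRM-like replicate 2, and Gbp6 without TEff replicate 1, while all kept their sign.

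In 14 of the 50 genes all 3 TRM-like samples lay above all 3 TEff samples, in 4 they all lay below, and in 32 the groups overlapped, against 10.6% of all genes with no overlap above and 9.71% below. Relative to the TEff mean, the median difference over the 50 genes on the log2(CPM + 0.5) scale was 0.57 in TRM-like replicate 1, 0.70 in replicate 2 and -0.13 in replicate 3. The heat map by sample shows this as a pair of red columns beside a mixed one.

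**Figure D1:**
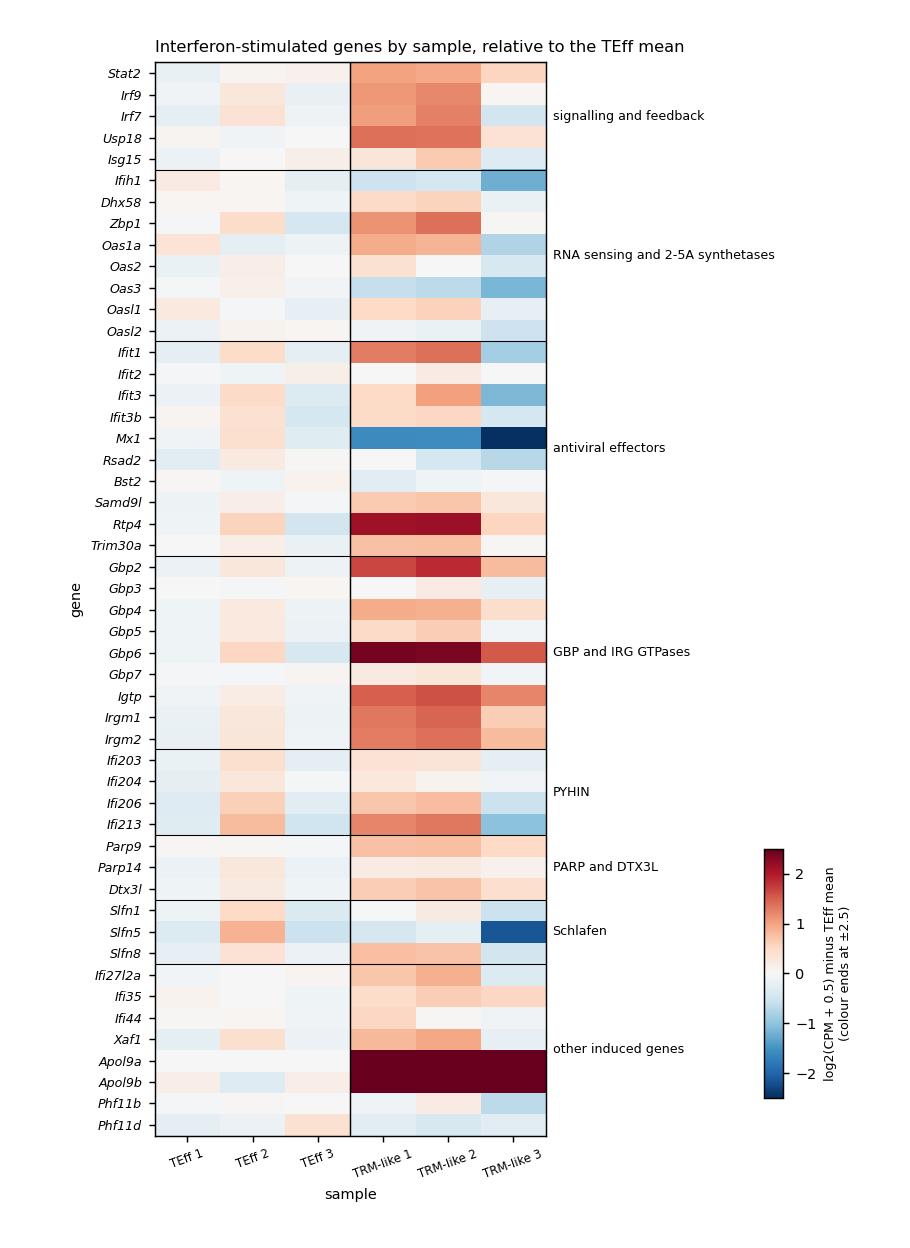
Heat map of the 50 interferon-stimulated genes (rows, grouped by role) in the 6 samples (columns), coloured by log2(CPM + 0.5) minus the mean of the 3 TEff samples, with the colour ending at ±2.5. TRM-like replicates 1 and 2 are red in most rows, replicate 3 is blue in many of them, and 6 of the 9 GTPase rows are red in all 3, of which 5 are past the threshold.

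Promoters were taken from the GRCm39 genome as 250 bases before to 50 bases after the canonical start of each gene in GENCODE vM39. The letters of the ISRE core, GAAA and again GAAA with any 2 bases between them, on either strand, were present in 30 of the 50 promoters (60%) and in 3.83% of 21685 promoters of protein-coding genes. The letters of a GAS element, TTCNNNGAA, which read the same on both strands, were present in 8 (16%) and in 8.84% of all promoters, 6 promoters held both and 18 neither. ISRE letters were in 6 of the 9 genes that rose, in Oas3 of the pair that fell, and in 23 of the 39 that did not pass (59%). All 4 PYHIN promoters held them and none of the 3 PARP and DTX3L promoters did. A match describes letters in this window and was not tested for binding. The 6 promoters below are those with the highest mean level per kb among genes that hold ISRE letters and passed the threshold with all samples or without TRM-like replicate 3. Genes with ISRE letters that passed in neither fit, such as Bst2 and Phf11b, were not eligible whatever their level. They are at chr11:48762198-48762497 (Irgm1, minus strand), chr3:142326099-142326398 (Gbp2, plus), chr7:104114358-104114657 (Trim30a, minus), chr1:173318824-173319123 (Ifi206, minus), chr11:58090194-58090493 (Irgm2, plus) and chr15:77613042-77613341 (Apol9b, plus). They are printed 5′ to 3′ on the strand of the gene, with the ISRE and GAS letters in capitals.
Irgm1: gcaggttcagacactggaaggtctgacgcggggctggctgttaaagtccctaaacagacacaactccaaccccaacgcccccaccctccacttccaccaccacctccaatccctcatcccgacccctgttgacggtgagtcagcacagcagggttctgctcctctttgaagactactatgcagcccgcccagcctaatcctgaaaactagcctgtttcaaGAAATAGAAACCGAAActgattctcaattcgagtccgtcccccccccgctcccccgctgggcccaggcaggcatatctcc
Gbp2: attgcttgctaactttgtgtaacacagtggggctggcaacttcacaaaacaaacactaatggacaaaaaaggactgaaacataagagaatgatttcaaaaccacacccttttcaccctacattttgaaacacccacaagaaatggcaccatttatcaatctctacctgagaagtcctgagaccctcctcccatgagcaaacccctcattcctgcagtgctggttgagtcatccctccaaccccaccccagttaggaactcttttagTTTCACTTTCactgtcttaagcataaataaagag
Trim30a: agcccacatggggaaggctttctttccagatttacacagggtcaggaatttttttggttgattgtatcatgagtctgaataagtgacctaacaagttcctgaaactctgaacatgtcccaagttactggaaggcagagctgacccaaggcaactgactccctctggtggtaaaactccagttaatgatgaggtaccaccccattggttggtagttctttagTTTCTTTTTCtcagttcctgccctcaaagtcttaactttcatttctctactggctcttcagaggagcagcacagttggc
Ifi206: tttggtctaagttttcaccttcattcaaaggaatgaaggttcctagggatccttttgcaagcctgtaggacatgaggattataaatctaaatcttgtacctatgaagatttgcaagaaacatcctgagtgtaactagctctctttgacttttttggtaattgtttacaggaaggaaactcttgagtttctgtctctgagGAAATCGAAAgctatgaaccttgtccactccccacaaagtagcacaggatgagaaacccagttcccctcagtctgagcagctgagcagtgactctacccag
Irgm2: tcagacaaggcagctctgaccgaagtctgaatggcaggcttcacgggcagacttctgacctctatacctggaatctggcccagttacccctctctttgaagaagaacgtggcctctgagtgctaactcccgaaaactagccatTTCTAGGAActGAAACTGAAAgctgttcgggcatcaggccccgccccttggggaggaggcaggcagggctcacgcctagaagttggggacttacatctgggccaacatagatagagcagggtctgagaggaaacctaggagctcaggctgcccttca
Apol9b: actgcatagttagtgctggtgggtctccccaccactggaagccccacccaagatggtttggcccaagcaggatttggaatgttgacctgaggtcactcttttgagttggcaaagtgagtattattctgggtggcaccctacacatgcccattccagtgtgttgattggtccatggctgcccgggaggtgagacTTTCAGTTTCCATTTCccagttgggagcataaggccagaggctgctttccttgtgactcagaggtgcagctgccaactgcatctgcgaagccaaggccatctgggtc
Irgm1 and Apol9b hold a pair of overlapping ISRE matches, and Irgm2 holds a GAS match just upstream of its ISRE match. In Gbp2 the match starts 16 bases after the start site. For contrast, Igtp, which rose, held neither set of letters in its window at chr11:58089869-58090168 (plus strand). The Irgm2 window, which holds both, starts at 58090194, just downstream of the Igtp window and within the Igtp gene.
Igtp: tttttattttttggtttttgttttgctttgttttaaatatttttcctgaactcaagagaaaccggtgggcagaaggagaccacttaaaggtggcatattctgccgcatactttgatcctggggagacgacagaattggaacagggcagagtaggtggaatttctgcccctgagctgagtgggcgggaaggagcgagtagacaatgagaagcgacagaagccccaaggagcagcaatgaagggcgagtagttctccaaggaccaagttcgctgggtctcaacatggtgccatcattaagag

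The immunity-related GTPases (IRG) and guanylate-binding proteins (GBP), which are recruited to vacuoles that hold intracellular microbes, gave the largest group of genes that rose. Of the 9 GTPase genes, 5 rose, none fell and 4 did not pass, where 1.52% of all genes tested rose and 1.48% fell. The median log2 fold change was 1.16 with all samples and 1.31 without TRM-like replicate 3. Igtp (ENSMUSG00000078853, chromosome 11, 58089840 to 58098417), which encodes Irgm3, was at 111, 134 and 112 CPM in TEff and 333, 358 and 277 CPM in TRM-like samples. Every TRM-like sample was above every TEff sample, the log2 fold change was 1.44 (SE 0.16, adjusted p = 0.00176), and Igtp passed the threshold in all 14 alternative fits. Irgm2 (ENSMUSG00000069874), its neighbour on the same strand, was at 34.3, 48.2 and 36.4 CPM in TEff and 95.3, 103 and 68.4 CPM in TRM-like samples. Its log2 fold change was 1.16 (SE 0.19, adjusted p = 0.0141), and 162 exonic bases lie in both genes. Irgm1 (ENSMUSG00000046879), a regulator of the other IRG proteins, was at 53.3, 72.7 and 54.7 CPM in TEff and 148, 165 and 91.1 CPM in TRM-like samples. It rose by a log2 fold change of 1.16 (SE 0.23, adjusted p = 0.0302) and by 1.37 without TRM-like replicate 3. All 3 IRG genes lie on chromosome 11 and were separated between the groups in every sample, with TRM-like replicate 3 the lowest of its group. Per kb, Igtp reached 160 CPM in TRM-like samples, against 58.5 for Irgm1 and 24.1 for Irgm2.

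Among the GBP genes, Gbp6 (ENSMUSG00000104713, chromosome 5, 105418568 to 105443751) changed most. It was at 12.9, 20.4 and 10.5 CPM in TEff and 75.9, 74.1 and 41.7 CPM in TRM-like samples, a log2 fold change of 2.13 (SE 0.30, adjusted p = 0.00576). Of its transcript, 94.8% is shared at 97% identity or more with other genes, mainly the neighbouring Gm43302, and the sum of both genes was 13.4, 21.4 and 11.1 CPM in TEff and 78.1, 76.7 and 43.4 CPM in TRM-like samples. Gbp2 (ENSMUSG00000028270, chromosome 3, 142326349 to 142343779) was at 44.9, 60.6 and 45.3 CPM in TEff and 158, 182 and 85.9 CPM in TRM-like samples. Its groups did not overlap, although TRM-like replicate 3 was nearer to the TEff samples than to the other TRM-like ones, and the log2 fold change was 1.50 (SE 0.27, adjusted p = 0.0189). Gbp4 was also separated, at 117, 149 and 116 CPM in TEff and 240, 234 and 171 CPM in TRM-like samples, but its adjusted p was 0.0601 (log2 fold change 0.75, SE 0.18). It passed in DESeq2 and, in edgeR, without TRM-like replicate 3 (0.89). Gbp5 had a log2 fold change of 0.38 and Gbp7 of 0.15 (0.55 and 0.25 without replicate 3), and neither passed in either fit. Gbp3 was at 28.1, 26.9 and 28.7 CPM in TEff and 27.6, 32.1 and 24.0 CPM in TRM-like samples, a log2 fold change of 0.00 (SE 0.14; 0.09 without replicate 3) whose sign changed with the scaling. Gbp3, Gbp5 and Gbp7 lie beside Gbp2 on chromosome 3, so that genes of 1 cluster differed in their values.

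**Figure D2:**
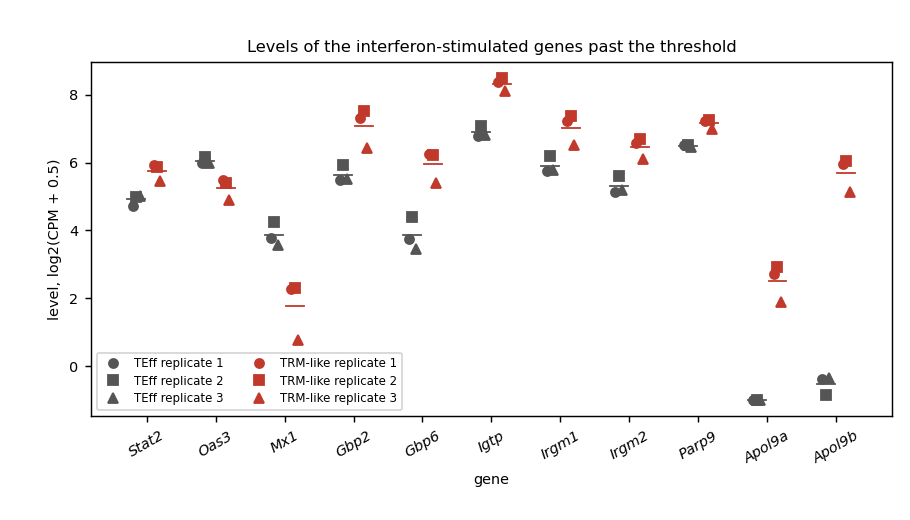
Level on the log2(CPM + 0.5) scale of the 11 interferon-stimulated genes past the threshold in each TEff (grey) and TRM-like (red) sample, with circles, squares and triangles for replicates 1, 2 and 3 and lines for group means. The red triangles of TRM-like replicate 3 are the lowest red points in every gene, yet all lie above the grey points in the 9 genes that rose and below them in Oas3 and Mx1.

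The signalling and feedback genes were higher in TRM-like replicates 1 and 2, and replicate 3 divided them. Stat2 (ENSMUSG00000040033, chromosome 10, 128106352 to 128128735), the ISGF3 subunit, was at 26.1, 31.4 and 32.2 CPM in TEff and 60.1, 57.6 and 43.5 CPM in TRM-like samples. It rose by a log2 fold change of 0.85 (SE 0.16, adjusted p = 0.0261), with a value of 0.97 without TRM-like replicate 3. With all samples it was the gene of this group of 5 that passed in edgeR, while in DESeq2 2 passed, Stat2 and Usp18. Irf9, the DNA-binding subunit of ISGF3, was at 47.8, 62.2 and 44.7 CPM in TEff and 108, 119 and 53.1 CPM in TRM-like samples. Replicate 3 lay inside the TEff range, and the log2 fold change was 0.86 (SE 0.28, adjusted p = 0.184) with all samples and 1.13 (adjusted p = 7.06e-05) without it. Irf7, a factor that amplifies interferon production, was at 23.6, 35.8 and 25.3 CPM in TEff and 57.7, 66.8 and 20.2 CPM in TRM-like samples, so that TRM-like replicate 3 was below all TEff samples. Its log2 fold change of 0.77 did not pass, and it was 1.13 (adjusted p = 0.000226) without replicate 3. Usp18, a protease that removes Isg15 from proteins and dampens receptor signalling, was at 2.15, 1.87 and 2.04 CPM in TEff and 6.02, 5.94 and 2.72 CPM in TRM-like samples. The groups were separated but the adjusted p was 0.0786 (log2 fold change 1.27, SE 0.32), and without replicate 3 the value was 1.55 (adjusted p = 9.75e-05). Isg15, the ubiquitin-like modifier, was low in all samples, at 0.640 to 0.884 CPM in TEff and 1.05, 1.49 and 0.507 CPM in TRM-like samples, and did not pass in either fit (log2 fold change 0.42, SE 0.42, and 0.73 without replicate 3). Its exons overlap the opposite-strand gene Gm46878 over 31.1% of their bases.

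The sensors of viral RNA and the 2-5A synthetases, whose product activates RNase L, included no gene that rose in edgeR, DESeq2 or limma-voom. Of the 8 genes, 1 fell, where 1.48% of all genes tested fell in edgeR. At an unadjusted p under 0.05 there were 1 higher and 2 lower genes of the 8, against 8.35% and 6.45% of all genes. Oas3 (ENSMUSG00000032661, chromosome 5, 120891163 to 120915729) was at 63.3, 71.6 and 63.1 CPM in TEff and 44.0, 41.8 and 29.4 CPM in TRM-like samples. It fell by 0.78 on the log2 scale (SE 0.17, adjusted p = 0.0443) and by 0.63 without TRM-like replicate 3, but passed in neither fit restricted to better counted genes and in none that left out another single library. Ifih1, the sensor MDA5, was lower in all TRM-like samples, at 9.90, 10.5 and 5.95 CPM against 16.6, 14.9 and 12.1 CPM in TEff, with a log2 fold change of -0.73 (SE 0.23) that did not pass (adjusted p = 0.171). Without replicate 3 it was -0.53 (adjusted p = 0.0277), which is short of the fold threshold. Zbp1, a sensor of nucleic acids in the Z form that triggers cell death, was at 18.0, 25.8 and 13.6 CPM in TEff and 41.1, 48.7 and 18.9 CPM in TRM-like samples. Only TRM-like replicates 1 and 2 were above the TEff range, and the log2 fold change was 0.92 (adjusted p = 0.25) with all samples and 1.22 (adjusted p = 0.000642) without replicate 3. Oas1a was at 2.24, 1.37 and 1.49 CPM in TEff against 3.62, 3.41 and 0.784 CPM in TRM-like samples, with replicate 3 below all TEff samples, and passed without replicate 3 (1.02, adjusted p = 0.0119). Of the Oas1a transcript, 99% is shared with Oas1g, so that the reads of this pair may be divided by the counting. Dhx58, the regulator LGP2, did not pass in either fit (log2 fold change 0.34 and 0.53). Oas2, Oasl1 and Oasl2 were at 0.436 CPM or less in every sample, with log2 fold changes of 0.10, 1.36 and -0.66 (0.56, 1.90 and -0.32 without replicate 3), and could not be placed in either direction at this depth. TRM-like replicate 3 lay below the TEff range in 6 of the 8 genes of this group and above it in 0, where it lay below in 29.5% and above in 29.7% of all genes tested.

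Among 10 antiviral effectors, none rose with edgeR or limma-voom, 1 rose with DESeq2, 3 had an unadjusted p under 0.05 with a higher value, as did 8.35% of all genes, and 1 fell. With all samples in edgeR, 1.48% of all genes tested fell. In the fit without TRM-like replicate 3, 5 of the effectors rose, where 6.38% of all genes rose. Mx1 (ENSMUSG00000000386, chromosome 16, 97248235 to 97264107), a dynamin-like GTPase that blocks viruses in the nucleus where its allele is intact, was at 13.3, 18.7 and 11.4 CPM in TEff and 4.36, 4.41 and 1.20 CPM in TRM-like samples. The groups did not overlap, and Mx1 fell by 2.12 on the log2 scale (SE 0.41, adjusted p = 0.0293), or by 1.73 (adjusted p = 7.24e-05) without TRM-like replicate 3. The call was lost without any 1 of the TEff samples or without TRM-like replicate 2. Mx1 thus went the opposite way from Rtp4, a chaperone with antiviral activity, which lies on the same chromosome and was at 2.47, 4.20 and 1.82 CPM in TEff and 13.3, 13.5 and 4.15 CPM in TRM-like samples. Rtp4 had the largest log2 fold change of the group, 1.86 (SE 0.46), but an adjusted p of 0.0761, with TRM-like replicate 3 just inside the TEff range. Without that replicate it was 2.22 (adjusted p = 2.56e-05), and Rtp4 also passed in DESeq2. Its exons overlap the same-strand gene Gm45338 over 26.6% of their bases. Ifit1, which binds viral RNA that lacks a host cap, was at 1.05, 1.97 and 1.05 CPM in TEff and 3.88, 4.24 and 0.507 CPM in TRM-like samples. Replicates 1 and 2 were the highest of all samples and replicate 3 the lowest, with a log2 fold change of 1.08 (adjusted p = 0.505) and of 1.57 (adjusted p = 0.0014) without replicate 3. Ifit2 was level in all samples, at 22.1 to 26.3 CPM in TEff and 23.6 to 27.3 CPM in TRM-like samples (log2 fold change 0.06, SE 0.14, and 0.09 without replicate 3).

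Ifit3 was at 2.01, 3.39 and 1.71 CPM in TEff and 3.45, 5.16 and 0.784 CPM in TRM-like samples, and shares 97.2% of its transcript with Ifit3b. The sum of both was 2.61, 4.25 and 1.99 CPM in TEff and 4.40, 6.16 and 1.06 CPM in TRM-like samples, again with TRM-like replicate 3 lowest of all. Ifit3 itself had a log2 fold change of 0.40 with all samples and 0.84 without replicate 3, where it just passed (adjusted p = 0.0499), and Ifit3b had 0.36 and 0.74 and passed in neither fit. Samd9l, a restriction factor of translation, was separated at 156, 190 and 164 CPM in TEff and 265, 273 and 208 CPM in TRM-like samples. Its log2 fold change of 0.55 (SE 0.16, adjusted p = 0.121) did not pass, and it was 0.65 without replicate 3, where it passed. Trim30a, a regulator of innate signalling, was at 71.8, 81.8 and 64.9 CPM in TEff and 121, 122 and 73.9 CPM in TRM-like samples, so that replicate 3 was inside the TEff range (log2 fold change 0.54 with and 0.73 without it, the latter past the threshold). Bst2, which tethers budding virions to the cell surface, had a log2 fold change of -0.15 (SE 0.13; -0.22 without replicate 3) and lay at 27.8 to 36.2 CPM throughout. Rsad2, the antiviral enzyme viperin, was below 0.71 CPM in every sample and did not pass (-0.79 with and -0.46 without replicate 3).

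**Figure D3:**
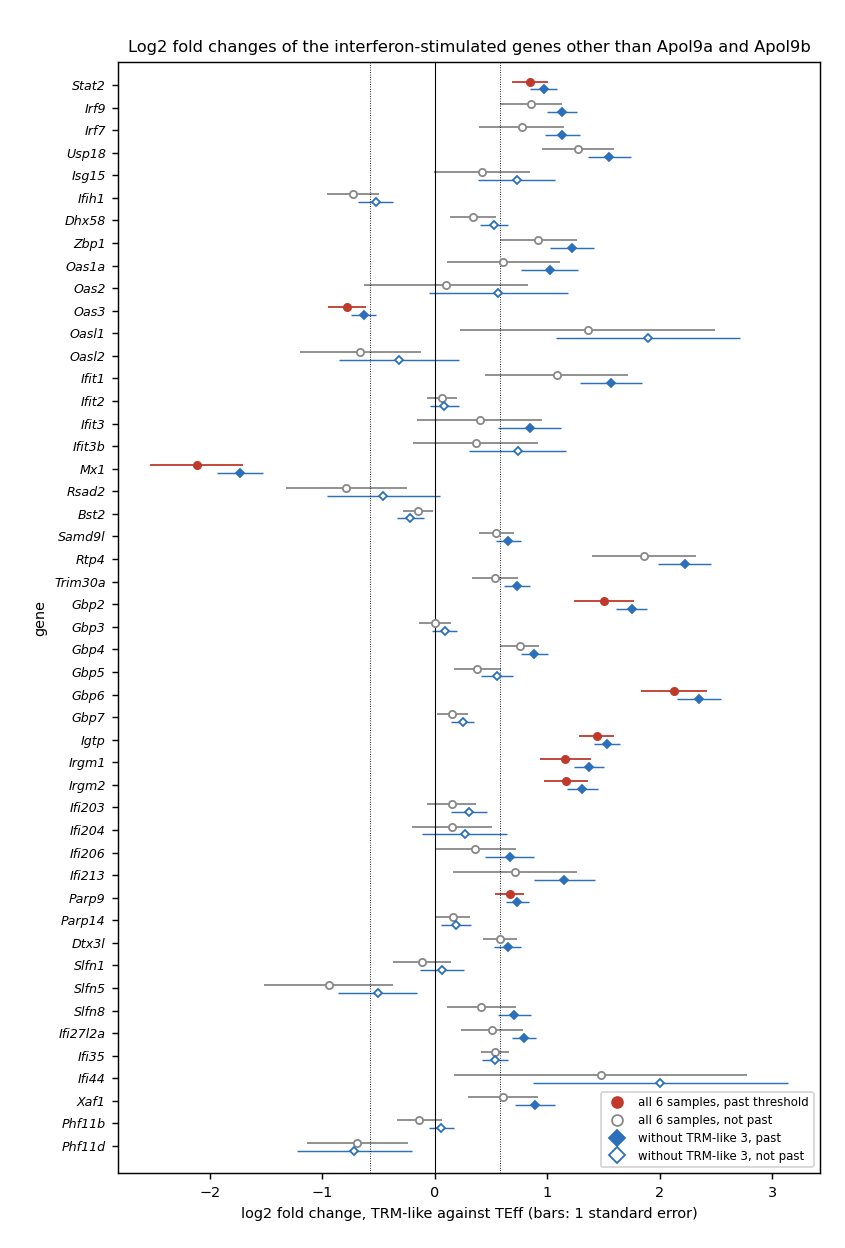
Log2 fold change of TRM-like against TEff samples for 48 interferon-stimulated genes, with bars of 1 standard error, from all 6 samples (circles) and without TRM-like replicate 3 (diamonds). Filled symbols are past the threshold, dotted lines mark ±0.58, and Apol9a and Apol9b are left out because their values lie far outside the axis, while most diamonds sit to the right of their circles.

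The PYHIN genes, DNA sensors and their relatives encoded side by side on chromosome 1, did not pass with all samples in 4 of 4 cases, and 0 passed in DESeq2 or limma-voom or had an unadjusted p under 0.05 in edgeR. Of all genes, 3.01% passed in edgeR and 14.8% had an unadjusted p under 0.05, so that 0 of 4 does not set these genes apart. Ifi213 showed the widest disagreement, at 27.8, 60.3 and 24.3 CPM in TEff and 80.8, 86.9 and 16.7 CPM in TRM-like samples, from the highest values in TRM-like replicates 1 and 2 to the lowest in replicate 3. Its log2 fold change was 0.71 (SE 0.55, adjusted p = 0.619) with all samples and 1.15 (adjusted p = 0.00894) without replicate 3. Ifi206 followed the same order, at 46.5, 89.4 and 48.4 CPM in TEff and 95.1, 101 and 40.3 CPM in TRM-like samples, with 0.36 and, without replicate 3, 0.67 (adjusted p = 0.0443). In both genes TEff replicate 2 stood well above the other TEff samples. Ifi203 and Ifi204 had log2 fold changes of 0.15 each (0.31 and 0.27 without replicate 3) and did not pass in either fit, and 52.2% and 49.5% of their transcripts are shared with related genes.

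Parp9, an ADP-ribosyltransferase, and its partner Dtx3l, a ubiquitin ligase, lie in opposite directions on chromosome 16 and share 458 exonic bases. Parp9 (ENSMUSG00000022906, 35758840 to 35792980) was at 92.0, 91.9 and 87.1 CPM in TEff and 150, 153 and 127 CPM in TRM-like samples, and rose by a log2 fold change of 0.67 (SE 0.13, adjusted p = 0.0277). Dtx3l was at 106, 134 and 106 CPM in TEff and 175, 188 and 154 CPM in TRM-like samples. It was separated as well, with a log2 fold change of 0.58 (SE 0.15) and an adjusted p of 0.0857. It passed in DESeq2 and, in edgeR, without TRM-like replicate 3 (0.65, adjusted p = 0.00202). In both genes TRM-like replicate 3 stayed above the TEff range. Parp14, which lies nearby, did not pass in either fit (log2 fold change 0.16 and 0.19).

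The Schlafen genes, which restrict translation and T cell growth, did not pass with all samples in edgeR, DESeq2 or limma-voom, where 3.01% of all genes passed in edgeR. In edgeR 0 of 3 had an unadjusted p under 0.05, against 14.8% of all genes. A count of 0 in 3 genes does not set them apart from all genes. TRM-like replicate 3 was below the TEff range in 3 of 3, against 29.5% of all genes. Slfn5 was at 4.12, 10.1 and 3.54 CPM in TEff and 3.88, 4.50 and 0.830 CPM in TRM-like samples, with a log2 fold change of -0.94 (SE 0.57, adjusted p = 0.522), or -0.51 without replicate 3. TEff replicate 2 was the highest sample and TRM-like replicate 3 the lowest. Slfn8 was at 40.4, 59.4 and 41.7 CPM in TEff and 78.3, 76.7 and 33.5 CPM in TRM-like samples, and passed without replicate 3 (0.71, adjusted p = 0.00432) but not with it (0.41). Opposite-strand genes overlap 24.9% of the exonic bases of Slfn8 (Gm74281) and 19.8% of those of Slfn5 (Slfn5os). Slfn1 had values of -0.11 and 0.07 in the fits with and without replicate 3.

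Apol9a and Apol9b, apolipoprotein L genes on chromosome 15, were the genes with the largest difference between the groups. Apol9b (ENSMUSG00000068246, 77613239 to 77620585) was at 0.274, 0.0506 and 0.276 CPM in TEff and 62.0, 65.4 and 34.4 CPM in TRM-like samples, with a log2 fold change of 8.03 (SE 0.43, adjusted p = 7.52e-05). Apol9a (ENSMUSG00000057346, 77287989 to 77295335) had 0 counts in all TEff samples and 6.02, 7.12 and 3.18 CPM in TRM-like samples. Against a floor of 3 counts per TEff library, 0.152 CPM on average, it was at least 35.9-fold higher. The Apol9a transcript is shared in full with Apol9b, so that their counts cannot be told apart, and the sum of both was 0.274, 0.0506 and 0.276 CPM in TEff and 68.0, 72.6 and 37.5 CPM in TRM-like samples. Apol9b passed in all 13 alternatives that tested it and Apol9a in all 10. TRM-like replicate 3 was again the lowest TRM-like sample, yet far above every TEff sample.

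Of the 6 remaining induced genes, none passed with all samples in edgeR, DESeq2 or limma-voom, and 1, Ifi35, had an unadjusted p under 0.05, as did 14.8% of all genes in either direction. Ifi27l2a, a small mitochondrial membrane protein gene, had the highest level per kb of the 50 genes, 184 CPM per kb in TEff and 261 in TRM-like samples. Its samples were at 80.6, 85.0 and 89.4 CPM in TEff and 138, 158 and 66.6 CPM in TRM-like samples, so that replicate 3 was below the TEff range, and the log2 fold change was 0.51 (adjusted p = 0.457) with and 0.79 (adjusted p = 0.000209) without it. Xaf1, a promoter of apoptosis, passed without replicate 3 (0.89, adjusted p = 0.00282) and was at 0.61 with all samples. Ifi35, at 27.7, 26.3 and 24.0 CPM in TEff and 35.7, 40.1 and 37.2 CPM in TRM-like samples, was a gene in which TRM-like replicate 3 was not the lowest TRM-like sample, as it also was not in Bst2, Ifit2 and Phf11d. Its log2 fold change was 0.53 in both fits, under the 0.58 of the threshold, with an adjusted p of 0.0613 over all samples. Phf11d was lower in all TRM-like samples, at 0.393, 0.306 and 0.369 CPM against 0.412, 0.456 and 0.884 CPM, which is near the limit of detection, and had a log2 fold change of -0.69 (SE 0.45, adjusted p = 0.548), or -0.72 without replicate 3. Phf11b had a log2 fold change of -0.14 with and 0.06 without replicate 3, and Ifi44 was at 0.262 CPM or less in every sample (1.47 and 2.01, neither past the threshold).

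The replicates of a group kept nearly the same order in most interferon-stimulated genes. Of the 41 members whose count reached 10 in each sample, TRM-like replicate 3 was the lowest TRM-like sample in 38 (92.7%), against 42.8% of the 14822 genes of that depth, and TEff replicate 2 was the highest TEff sample in 29 (70.7%) against 38.1%. In the other direction, TRM-like replicate 3 was the highest of its group in 1 (2.44%) against 44.7%. TEff replicate 2 was the lowest of its group in 5 (12.2%) against 45.3%. TRM-like replicate 3 minus the mean of the others had a median of -0.72 on the log2(CPM + 0.5) scale, against 0.01 over all genes, and TEff replicate 2 minus the mean of the other TEff samples had a median of 0.37, against -0.03. The other pairs of replicates differed little, with medians of 0.10 between TRM-like replicates 2 and 1 and -0.01 between TEff replicates 3 and 1. Over all genes the quartiles were -0.33 and 0.36 for TRM-like replicate 3, and -0.22 and 0.19 for TEff replicate 2. Between TRM-like replicates 2 and 1 they were -0.09 and 0.14, and between TEff replicates 3 and 1 -0.10 and 0.10. Both libraries thus stood further from their group over all genes as well, in either direction. Across these 41 genes TRM-like replicate 3 was above the TEff range in 12 (29.3%), inside it in 11 (26.8%) and below it in 18 (43.9%), where the shares of the 14822 genes were 36.1%, 31.7% and 32.2%. Over all 50 genes, it was above in the GTPases in 6 of 9, in the PARP and DTX3L genes in 2 of 3, in the signalling and feedback genes in 2 of 5, in the other induced genes in 3 of 8, in the antiviral effectors in 1 of 10, and in the PYHIN, Schlafen, and RNA sensing genes in 0, against 29.7% of all genes tested. These groups are small, and the differences between them were not tested. The Klrb1c level given above, lowest in TRM-like replicate 3 and highest in TEff replicate 2, moved with this order, while the receptor genes that T cells do not use were high in TRM-like replicates 1 and 2 alone. The part of either in these values was not tested.

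The genes past the threshold differed between the fits with and without that replicate as follows. There were 10 genes past it in both, and without the replicate their log2 fold changes were 8.26 for Apol9b, 2.35 for Gbp6, 1.75 for Gbp2, 1.53 for Igtp, 1.37 for Irgm1, 1.31 for Irgm2, 0.97 for Stat2, 0.74 for Parp9, -0.63 for Oas3 and -1.73 for Mx1. A further 17 passed it without TRM-like replicate 3 and not with it. Apol9a passed with it and could not be tested without it, being then detected in too few samples. The 17 were Irf9, Irf7, Usp18, Zbp1, Oas1a, Ifit1, Ifit3, Samd9l, Rtp4, Trim30a, Gbp4, Ifi206, Ifi213, Dtx3l, Slfn8, Ifi27l2a and Xaf1, with log2 fold changes from 0.65 (Samd9l and Dtx3l) to 2.22 (Rtp4) in that fit. All 17 had positive values in the fit of all samples too, from 0.36 (Ifi206) to 1.86 (Rtp4).

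**Figure D4:**
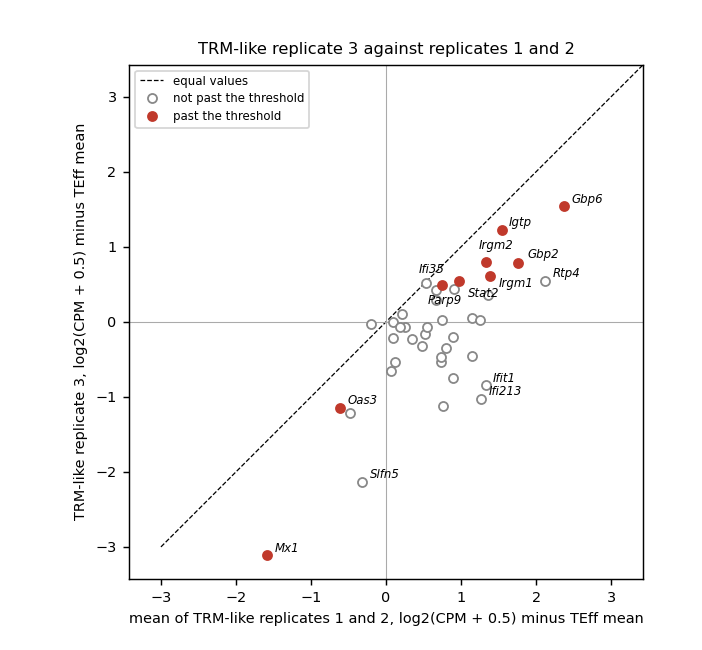
Difference from the TEff mean on the log2(CPM + 0.5) scale in TRM-like replicate 3 (vertical axis) against the mean of TRM-like replicates 1 and 2 (horizontal axis) for the 41 interferon-stimulated genes whose count reached 10 in each sample. Nearly all points lie under the dashed line of equal values, those past the threshold are filled, and Ifi213, Ifit1 and several others are above 0 on the horizontal axis and below 0 on the vertical one.

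The genes upstream of this response were compared in the same fit. Of 20 genes for interferon receptors and signalling, 19 were tested, 5 rose and 1 fell, against 1.52% and 1.48% of all genes tested. The receptor chains for interferon-γ moved in opposite directions. Ifngr1, the ligand-binding chain, was at 511, 685 and 557 CPM in TEff and 279, 318 and 259 CPM in TRM-like samples and fell by 1.03 on the log2 scale (SE 0.16, adjusted p = 0.0102). Ifngr2, the signal-transducing chain, was at 0.732, 0.911 and 0.497 CPM in TEff and 8.11, 9.09 and 10.6 CPM in TRM-like samples, and its log2 fold change was 3.68 (SE 0.26, adjusted p = 0.000209). Per kb, Ifngr2 remained far lower than Ifngr1 in TRM-like samples, at 2.50 against 135 CPM. Ifngr2 was highest in TRM-like replicate 3, unlike most interferon-stimulated genes. The type I receptor genes Ifnar1 and Ifnar2 and the kinase genes Jak1, Jak2 and Tyk2 did not pass in either fit, with log2 fold changes from -0.17 (Ifnar1) to 0.10 (Tyk2), although Ifnar1 was lowest of all in TRM-like replicate 3, at 89.2 CPM against 120 to 164 CPM in the other samples.

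Transcription factor genes and the feedback gene Socs1 of the same list were also among those that rose. Irf1, an early transcription factor of the response, was at 79.1, 109 and 84.8 CPM in TEff and 212, 226 and 133 CPM in TRM-like samples, with a log2 fold change of 1.07 (SE 0.22, adjusted p = 0.0351). Irf8 rose by 1.81 (SE 0.25, adjusted p = 0.0051), with 140, 143 and 124 CPM in TRM-like samples against 45.8, 23.5 and 46.8 CPM. The feedback inhibitor Socs1 rose by 0.79 (SE 0.13, adjusted p = 0.0115), from 34.5 to 36.6 CPM in TEff to 57.7, 68.7 and 57.9 CPM in TRM-like samples. In Irf8 and Socs1 the 3 TRM-like samples lay close together, unlike in Irf1, where replicate 3 was the lowest. Without TRM-like replicate 3 the log2 fold changes were 1.26 for Irf1, 1.86 for Irf8, 0.82 for Socs1, 3.56 for Ifngr2 and -0.98 for Ifngr1, all past the threshold. Socs3 went the opposite way from Socs1, at 33.1, 38.0 and 36.6 CPM in TEff and 19.7, 23.7 and 28.2 CPM in TRM-like samples. Its log2 fold change was -0.59 (SE 0.16, adjusted p = 0.0967), and -0.74 (adjusted p = 0.00104) without TRM-like replicate 3, where it passed. In that fit 5 genes of the list rose and 2 fell of 19, against 6.38% and 7.67% of all genes. Irf8 and Ifngr2 passed in every alternative that tested them, whereas Irf1 lost its call without any single library other than TRM-like replicate 3, Socs1 without any 1 TEff sample or TRM-like replicate 2, and Ifngr1 without TEff replicate 3 or TRM-like replicate 1.

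**Figure D5:**
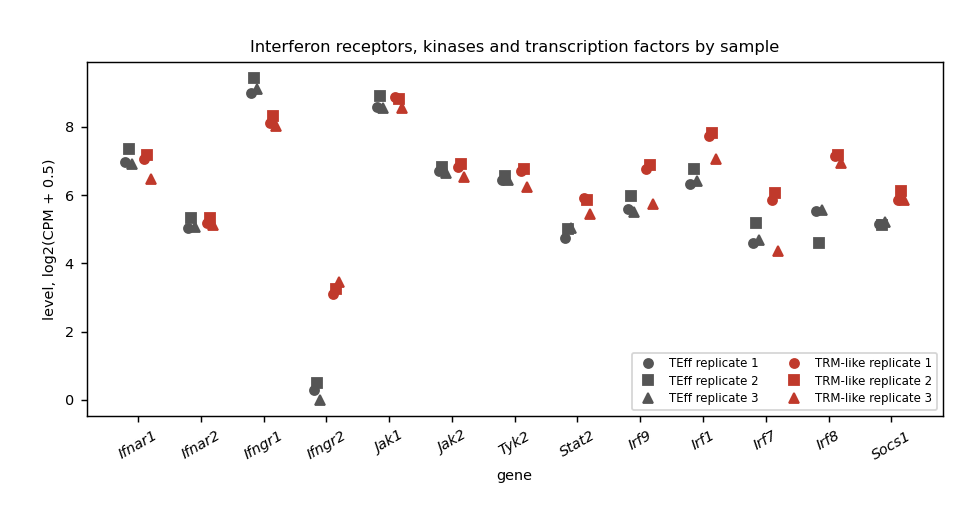
Level on the log2(CPM + 0.5) scale of interferon receptor, kinase, transcription factor and feedback genes in each TEff (grey) and TRM-like (red) sample, with circles, squares and triangles for replicates 1, 2 and 3. Ifngr1 is lower and Ifngr2, Stat2, Irf1, Irf8 and Socs1 are higher in every TRM-like sample, while the groups overlap in Ifnar1, Ifnar2, Jak1, Jak2, Tyk2, Irf9 and Irf7.

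Transcripts of the interferons themselves were scarce. Of 21 ligand genes, 12, among them Ifnb1, had 0 counts in every sample, which allows up to 0.131 to 0.166 CPM per library, 6 had 1 to 3 counts over all samples, and 3 were tested. Ifng was at 3.57, 1.47 and 3.26 CPM in TEff and 2.92, 3.93 and 0.415 CPM in TRM-like samples. It was the lowest of its group in TRM-like replicate 3 and in TEff replicate 2. These values rest on 9 to 90 counts, and their relation to the interferon-stimulated genes was not tested. None of the 3 passed in edgeR, DESeq2 or limma-voom, and 0 had an unadjusted p under 0.05 in any of these tools, against 14.8% of all genes in edgeR. These are levels on day 6 and do not cover earlier times.

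Among 21 nucleic acid sensors and adaptors, 20 were tested and 1 rose, where 1.52% of all genes tested rose. This gene was Tlr7, the endosomal receptor for single-stranded RNA. It was at 0.320, 0.304 and 0.221 CPM in TEff and 10.7, 8.61 and 3.64 CPM in TRM-like samples, a log2 fold change of 4.72 (SE 0.48, adjusted p = 0.0013), with replicate 3 the lowest TRM-like sample. Of 77 further interferon-stimulated genes outside the 50, 76 were tested, 8 rose and 4 fell, against 1.52% and 1.48% of all genes tested. The remaining IRG and GBP genes of that list that rose were Ifi47 (log2 fold change 1.39), Tgtp1 (1.61), Tgtp2 (1.76) and Gbp10 (2.37). Shared sequence was examined for the 50 genes alone, so that reads of these 4 may be divided with related genes, which was not tested. Ifi47 was at 67.8, 83.1 and 69.2 CPM in TEff and 192, 219 and 165 CPM in TRM-like samples and, like Igtp, passed in all 14 alternatives. The others that rose were Isg20, an exonuclease (2.17), Lgals9, a galectin (0.86), Ly6a, the surface protein Sca-1 (1.38), and Ciita, the regulator of class II genes (2.82), each with TRM-like replicate 3 lowest in its group. Those that fell were the chemokine gene Ccl5 (-4.30), the antiviral gene Ifitm2 (-0.98), and the membrane protein genes Ms4a4b (-0.97) and Ms4a4c (-1.40). Ccl5 was at 23.4, 63.4 and 32.5 CPM in TEff and 1.35, 1.92 and 2.77 CPM in TRM-like samples, with TRM-like replicate 3 the highest of its group. Without TRM-like replicate 3 all 13 genes given so far in this paragraph remained past the threshold, Tlr7 at 5.05, Ifi47 at 1.47 and Ccl5 at -4.60. Tlr7, Ccl5, Ifi47 and Ms4a4c passed in every alternative that tested them, and the other 9 lost their call in at least 1 fit that left out a library other than TRM-like replicate 3. In edgeR without TRM-like replicate 3, 3 of the 20 sensors and adaptors rose and 1 fell, and 26 and 6 of the 76 further genes. The shares of all genes were 6.38% and 7.67%. Rigi (0.71, adjusted p = 0.000873) and Mavs (0.62, adjusted p = 0.00391) rose beside Tlr7, and Cgas fell (-0.88, adjusted p = 0.000598). With all samples Rigi, Mavs and Cgas did not pass (0.53, 0.62 and -0.52).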

How the data were processed

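The authors trimmed the reads with Cutadapt 4.8, then mapped and counted them with Rsubread against GENCODE annotation of GRCm39, and deposited raw read counts per gene with gene lengths, without normalization. The kit was stranded, but the strand setting and the treatment of reads with several matches are not given in the sources used here. The study removed a batch effect that is not named, and none was removed here. Symbols and positions came from GENCODE vM39, which held 56620 of the 57126 genes.

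The deposited counts went into edgeR's quasi-likelihood test (version 4.0.16, R 4.3.3, TMM scaling), all 6 samples in 1 fit. The 26154 genes detected in 3 samples or more were tested, with Benjamini-Hochberg adjustment over them. The standard error is the log2 fold change divided by the square root of F. CPM values use effective library sizes, and floors and CPM of low genes carry counting error. Total counts were 18319013 to 23622621 per sample. Shared sequence was exonic identity of at least 97% over at least 100 bases. Exon overlaps were taken over all exons of a gene in GENCODE vM39, which may differ from the exons that the authors counted. The fitting script was tested on simulated data. Alternatives were DESeq2 1.42.0, limma-voom (limma 3.58.1), other scalings and filters, a replicate block, and each sample left out. The members, lists and roles were chosen with earlier results of these data known. Named genes were those past the threshold, with groups that did not overlap, past the threshold without TRM-like replicate 3, or with the widest gaps between TRM-like replicates, and, of the other lists, the receptor subunits, the kinases and the genes past the threshold, of which 1 is not reported here. Ifng, Socs3, Rigi, Mavs and Cgas were added after their values were seen.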

Additional observations from a re-analysis of the deposited data

How the results depend on the processing

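Among interferon-stimulated genes past the threshold, 3 of 11 (Igtp, Apol9a and Apol9b) passed in every alternative that tested them, and none of the 11 changed sign. The counts of Apol9a and Apol9b cannot be told apart, so that they may not be separate cases. Of the 39 others, 19 passed in at least 1 of the 14 alternatives, 7 of these only without TRM-like replicate 3, and 8 changed sign. The number that rose, 9, was 18 with no filter on low counts and 3 to 25 with 1 library left out, the 25 without TRM-like replicate 3. The number that fell, 2, was 1 with filterByExpr, 1 with a minimum of 10 counts per sample, 4 with no filter and 0 to 2 with 1 library left out. In the wider interferon lists, 14 genes rose and 5 fell, against 23 and 8 with no filter, and 5 to 34 and 2 to 9 with 1 library left out. Over all genes, 398 rose and 388 fell, against 671 and 593 in DESeq2, 1002 and 866 with no filter, and 119 to 1625 and 144 to 1954 with 1 library left out. With no filter the median log2 fold change of all genes shifted to 0.38, against -0.01 to 0.04 in every other fit. The median over the interferon-stimulated genes was 0.26 to 0.73 over all alternatives. A fit on fewer samples holds less information, and beyond this the cause was not tested.

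Under a replicate block, 16 of these genes rose and 4 fell, 23 and 9 in the wider lists, and 955 and 1079 over all genes. Deviations from the group means over 14822 genes had correlations of -0.33, 0.34 and 0.42 between same-numbered samples 1, 2 and 3. Deviations within so small a group depend on each other, so these values cannot decide whether same-numbered samples belong together. The labels give them a shared number and do not say more.

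Signs changed in genes that did not pass with all samples, most of them near 0, with Ifit3 (0.40) and Ifi44 (1.47) the furthest from it. Gbp3 became 0.0181 with DESeq2 size factors, 0.0027 with library totals alone, 0.0182 in DESeq2, 0.0158 with filterByExpr and 0.0148 with a minimum of 10 counts per sample, and Oas2 became -0.23 in limma-voom. With 1 library left out, the log2 fold change ranged from -0.12 to 0.0865 in Gbp3, -0.68 to 0.56 in Oas2, -0.0121 to 0.16 in Ifit2, -0.17 to 0.84 in Ifit3, -0.034 to 0.42 in Ifi204, -0.30 to 0.18 in Slfn1, -0.47 to 2.01 in Ifi44, -0.35 to 0.0586 in Phf11b, -0.31 to 0.0045 in Ifnar1, -0.0029 to 0.15 in Ifnar2, -0.0021 to 0.18 in Jak1, -0.045 to 0.14 in Jak2, and -0.0024 to 0.24 in Tyk2. At 0.436 CPM or less, Oas2, Oasl1, Oasl2 and Ifi44 rest on few counts.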
